A study of Rattus norvegicus with 8 samples.

Results

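Cytosolic ribosomal protein genes encode the protein parts of the ribosomes that work outside mitochondria. They were taken as the probes whose gene name starts with Rpl or Rps and a digit, or is Rplp0, Rplp1 or Rplp2, with the Rps6k kinases left out. The brightest probe of a gene stands for it. This gives 85 gene names with 146 probes, out of 16354 gene symbols and 30367 probes on the arrays. The large subunit has 48 of the names, the small subunit 31 and the stalk 3. The other 3 are not subunits: Rpl27-ps1 and Rps2-ps7 are named as pseudogenes, and Rps19bp1 encodes a protein that binds Rps19.

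Lumbar spinal cord of male Wistar rats aged 12 weeks was measured on 1-colour Agilent arrays, with 1 array per rat. The 4 stressed rats went through water avoidance, in which a rat keeps to a small platform with water around it, daily for 10 days, with tissue collection 24 hours after the last session. The 4 control rats were of the same sex, strain and age. The comparison asks how repeated psychological stress alters spinal gene expression. Each array measured between 23005 and 24066 probes well above background.

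A ribosome joins a small subunit, which reads the messenger RNA, to a large subunit, which links the amino acids. Ribosomal proteins are needed in matched amounts, and copies that find no partner are degraded. Their messenger RNAs are short and abundant, and most begin with a C and a run of pyrimidines, the terminal oligopyrimidine tract, through which TOR signalling and the RNA-binding protein Larp1 set how much of them is translated.

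Control 2 stood apart from the other control rats before any gene was compared. In 1885 transcripts that have probes 300 or more bases apart, the median 5′ minus 3′ signal difference, centred over the arrays, was 0.17, 0.15, 0.17 and 0.09 log2 units in the stressed rats. In control 1 to 4 it was -0.30, 0.22, -0.30 and -0.18. Control 2 lay above all 4 stressed rats and the other 3 control rats lay below them. All 8 arrays shared 1 slide, where each group filled its own row, so that place on the slide and group cannot be told apart. When this difference is used as a covariate below, control 2 is the 1 rat that separates it from the group, so that such values rest largely on control 2 and are no separate check.

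Differences in ribosomal protein messages between stressed and control cord were small, with log2 fold changes from -0.19 to 0.37, and Rpl5 was the 1 member that rose. Of the 85 genes, 84 were well above background on all 8 arrays and were tested, while Rps19bp1 was above background on 0 arrays and was not. With limma and a false discovery rate (FDR) below 0.1, 1 of the 84 genes rose and 0 fell, against 885 of 23678 tested probes (3.74%) in the whole data and 3.62% of the brightest probes of all gene symbols. At an FDR below 0.05 limma called 0 of the 84, against 113 of the 23678 probes (0.477%) and 0.352% of the brightest probes of all symbols. At an unadjusted p below 0.05 it picked 3 higher and 2 lower in stressed rats, 5 in all, against 20.3% of all tested probes and 19.8% of the brightest probes of all symbols. The groups did not overlap in 10 of the 84 genes, against 12.1% of all tested probes.

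Without control 2, limma called 19 of the 84 genes, 11 up and 8 down, while 10036 of the 23678 probes (42.4%) were called. Leaving out any other rat gave 0 called ribosomal protein genes in limma, with 1 to 4 at an unadjusted p below 0.05 against 12.7% to 18.6% of all tested probes, and between 0 and 72 called probes. Among the 885 probes called with all rats, 655 rose and 230 fell (74.0% rises). Each scaling calls its own set of probes, and the share of rises among them depends on it: 47.2% of 1266 after median scaling, 22.7% of 1794 with no scaling, 49.4% of 1251 after quantile normalization and 57.1% of 1296 after cyclic loess.

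The median log2 fold change, stressed over control, was -0.04 over the 84 genes (quartiles -0.08 and 0.04), with 30 genes above 0 and 54 below. Over all tested probes it was 0.06. Scaling moves this background to -0.05 (median scaling) and -0.14 (no scaling). The family was -0.10 from all tested probes and -0.06 from the brightest probes of the other symbols, and these 3 scalings cannot change such a gap, since each takes 1 value per array off all probes. The gap to all tested probes was 0.00 after quantile normalization and cyclic loess and -0.01 with the 5′ minus 3′ covariate. The family's own median was -0.15 with median scaling, -0.24 with no scaling, -0.03 after quantile normalization, 0.00 after cyclic loess (40 genes above 0) and -0.03 without control 2.

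The family's median level on each array, centred over the arrays, was 0.02, -0.02, -0.03 and -0.03 log2 units in the stressed rats and 0.07, 0.06, 0.00 and -0.04 in the control rats. The groups overlap, and control 1 and control 2 are the highest. In bulk tissue a lower message level from fewer cells and from less RNA per cell cannot be told apart.

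The members varied little. The median standard deviation within a group was 0.09 log2 units for the 84 genes and 0.18 for the brightest probes of the other gene symbols. Genes of other large complexes also varied little. Their median was 0.096 for mitochondrial ribosomal proteins, 0.097 for oxidative phosphorylation and 0.103 for the proteasome. The 95% confidence interval of the fold change lay inside -0.5 to 0.5 for 77 of the 84 genes (91.7%) and for 54.5% of the other 13276 symbols. For the same 3 complexes, in that order, it did so for 79.7%, 89.3% and 82.5% of the genes. Of the 84 genes, 0 had a fold change beyond 0.5 in either direction, against 1384 of the other symbols. In the other complexes it was 2 of 69 mitochondrial ribosomal protein, 1 of 84 oxidative phosphorylation and 0 of 40 proteasome genes.

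**Figure D1:**
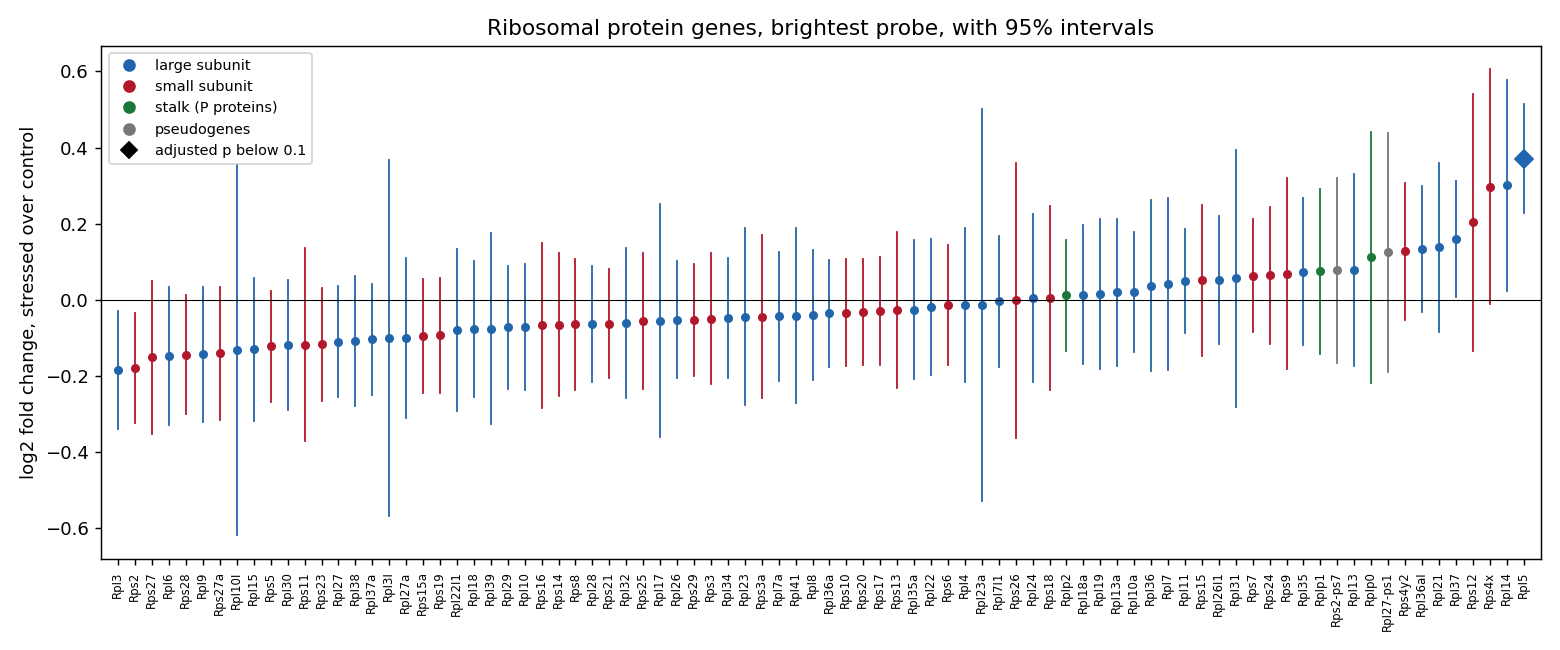
Log2 fold change, stressed over control (vertical axis), of each of the 84 tested ribosomal protein genes (horizontal axis, ordered by value), with the 95% interval from limma as a vertical line and the subunit as colour. Values run from -0.19 for Rpl3 to 0.37 for Rpl5, the only gene with a diamond for an adjusted p below 0.1; all values shift together, by -0.11 with median scaling and by -0.20 with no scaling.

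Rpl5 binds the small ribosomal RNA of the large subunit together with Rpl11. Levels are log2 signals minus the 75th percentile of their array, and on this scale the Rpl5 probe read 3.60, 3.66, 3.55 and 3.58 in the stressed rats and 3.20, 3.28, 3.19 and 3.25 in the control rats. All 4 stressed rats were above all 4 control rats, and control 2 lay with the other control rats. The group means were 3.60 ± 0.05 and 3.23 ± 0.04 (SD, n = 4 each). The log2 fold change was 0.37 (SE 0.06, 95% interval 0.23 to 0.51), with a limma adjusted p of 0.0544 and an exact two-sided permutation p of 0.0286, the smallest that 70 choices of 4 of 8 arrays can give. Every gene whose groups do not overlap gets this permutation p, here and below, so that it only restates the separation.

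Rpl5 was positive under all 23 alternative settings, with fold changes from 0.17 to 0.41, and passed an FDR of 0.1 in 11 of them, with limma adjusted p values from 0.00109 to 0.280. Without control 2 its fold change was 0.39 with a limma adjusted p of 0.00273. Leaving out any of the other 7 rats ended the call, with a limma adjusted p of up to 0.201 and a fold change of at least 0.35.

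Rpl5 has 1 probe on the array, at chr14:2401385-2401444 of rn4, from base 367 of its transcript, and the array files list 2 Ensembl transcripts for it. The bases of this probe that come first are shown because the only call of the family rests on them, and its start site because Rpl5 belongs to the genes with a pyrimidine run (capitals) near the annotated start. The start site is at chr14:1995206-1995235 of GRCr8 (RefSeq), minus strand.
Rpl5 probe A_64_P024953: aacttccaaaatacggtgtgaaagttggcc
Rpl5 start site: CTTTCCCacgtcgcttgcgtcctggaggtg

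Rpl11, the partner of Rpl5, read 4.95, 4.89, 4.89 and 4.88 in the stressed rats and 4.90, 4.85, 4.86 and 4.82 in the control rats. The groups overlap. Stressed over control, the log2 fold change was 0.05 (95% interval -0.09 to 0.19), and it turns to -0.07 with median scaling, -0.15 with no scaling and -0.13 with the GC trend removed.

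**Figure D2:**
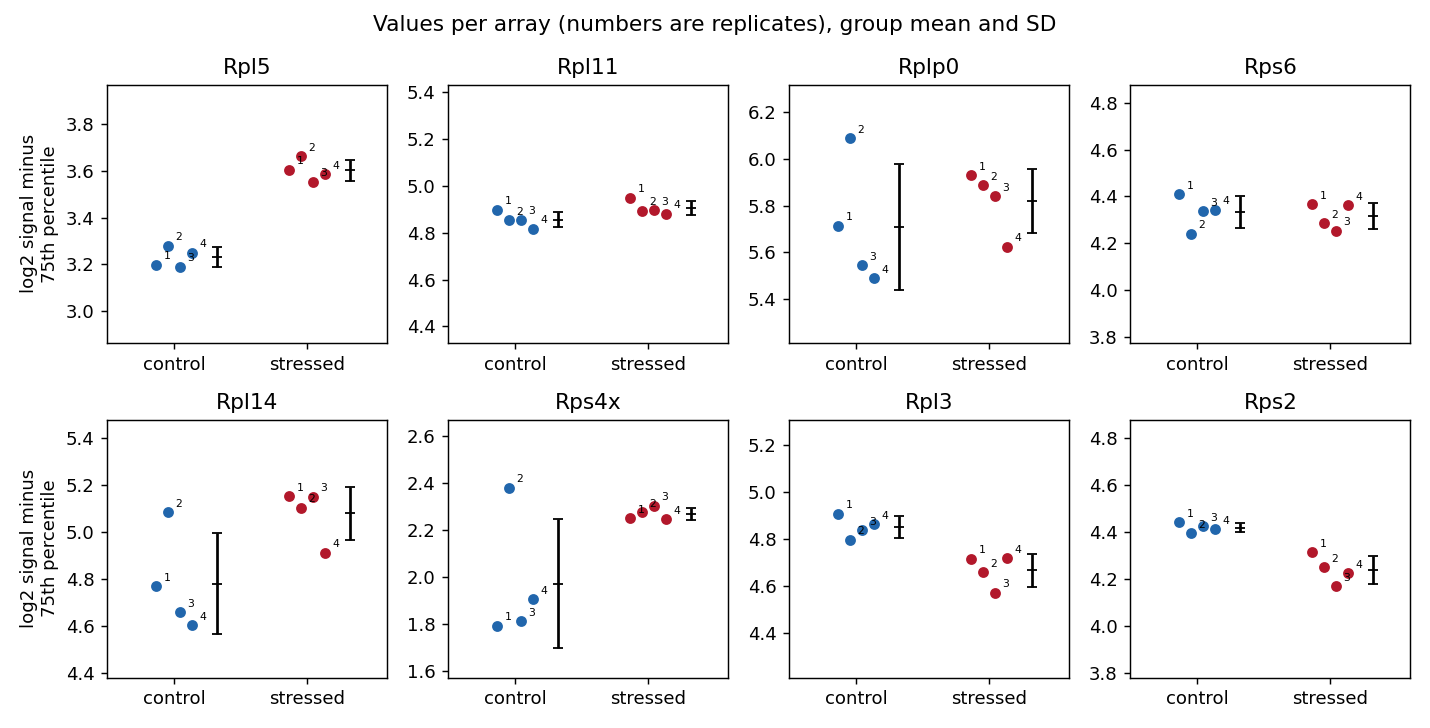
Scaled log2 signal (vertical axis, 0 is the 75th percentile of an array) for 8 genes in control and stressed rats, 1 point per rat with its replicate number, and the group mean and SD beside the points. The Rpl5 groups are apart at 3.19 to 3.28 and 3.55 to 3.66, while in Rplp0, Rpl14 and Rps4x control 2 lies among or above the stressed rats.

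The stalk proteins Rplp0, Rplp1 and Rplp2 form the arm of the large subunit that calls in the elongation factors. Rplp0, which anchors the arm, read 5.93, 5.89, 5.84 and 5.62 in the stressed rats and 5.71, 6.09, 5.55 and 5.49 in the control rats. Control 2 was the highest of the 8 and the groups overlap. The log2 fold changes were 0.11 for Rplp0, 0.07 for Rplp1 and 0.01 for Rplp2, with 0 of the 3 called by limma and 0 at an unadjusted p below 0.05. All 3 turn negative with median scaling, at -0.00382, -0.04 and -0.10, and with no scaling, at -0.09, -0.12 and -0.19. Without control 2, Rplp0 was at 0.24 with a limma adjusted p of 0.0999, so that it then passed. Rplp1 was then at 0.15 with a limma adjusted p of 0.116. A second Rplp0 probe, identical to the first over the 41 bases they share, was at -0.00487 with all rats.

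Among the 48 large subunit genes, limma called 1 up and 0 down, against 3.62% of the brightest probes of all symbols. The median log2 fold change was -0.04, with 17 above 0 and 31 below. Rpl14, a large subunit protein, read 5.15, 5.10, 5.15 and 4.91 in the stressed rats and 4.77, 5.08, 4.66 and 4.60 in the control rats. Control 2 lay with the stressed rats and the other 3 control rats were below them. Its log2 fold change was 0.30 with a limma adjusted p of 0.223, 0.40 with an adjusted p of 0.0109 without control 2, and 0.07 with an adjusted p of 0.727 once the 5′ minus 3′ difference was a covariate. A second Rpl14 probe, at base 175, was at 0.18 with a limma adjusted p of 0.258. There the groups did not overlap, and control 2 read lowest of all rats, at 2.60. This second probe was not run singly under the alternatives.

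Rpl3, whose protein reaches the centre where peptide bonds are made, read 4.72, 4.66, 4.57 and 4.72 in the stressed rats and 4.91, 4.80, 4.84 and 4.86 in the control rats. All stressed rats were below all control rats. This gives a log2 fold change of -0.19 (SE 0.07), the lowest of the 84, with a limma adjusted p of 0.195 and an exact permutation p of 0.0286. Without control 2 it was -0.20 with a limma adjusted p of 0.0397.

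Rpl6, another large subunit protein, read 4.97, 4.91, 4.91 and 4.97 in the stressed rats and 5.16, 5.17, 5.13 and 4.91 in the control rats. Control 4 lay at the level of the stressed rats and the other 3 control rats above them. The log2 fold change was -0.15 with a limma adjusted p of 0.320. With no scaling, which shifts every value by -0.20, Rpl6 was at -0.35 with a limma adjusted p of 0.0968. Rpl10, which joins the large subunit late in its assembly, had a log2 fold change of -0.07, Rpl32 -0.06 and Rpl13a 0.02, and limma called 0 of these 3, with 0 at an unadjusted p below 0.05. The sign of Rpl13a turns with median scaling (-0.10) and with no scaling (-0.18).

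Rpl23a, a protein at the exit of the peptide tunnel, is given because control 2 lay far from the others, and it was chosen after its values were seen. It read 3.14, 3.07, 2.98 and 3.01 in the stressed rats and 3.38, 2.34, 3.34 and 3.20 in the control rats. Control 2 was the lowest of the 8, and the other 3 control rats were above all stressed rats. Stressed over control, the log2 fold change was -0.01 with all rats, -0.26 without control 2 (limma adjusted p 0.0293) and 0.53 once that 5′ to 3′ measure was a covariate (limma adjusted p 0.0465), and the last 2 values both turn on control 2.

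Among the 31 small subunit genes limma called 0, with 0 up and 1 down at an unadjusted p below 0.05. Of the brightest probes of all symbols, 3.62% were called and 19.8% were at an unadjusted p below 0.05. The small subunit's median log2 fold change was -0.05, with 8 above 0 and 23 below. Rps6, the target of the S6 kinases downstream of TOR, read 4.37, 4.29, 4.25 and 4.36 in the stressed rats and 4.41, 4.24, 4.34 and 4.34 in the control rats. The groups overlap. Its log2 fold change was -0.02 (95% interval -0.17 to 0.14), and it is 0.01 after quantile normalization and 0.02 after cyclic loess.

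Rps2, a protein near the channel where the message enters, read 4.31, 4.25, 4.17 and 4.22 in the stressed rats and 4.44, 4.40, 4.43 and 4.41 in the control rats. All stressed rats were below all control rats, and the 4 control rats lay close together. This gives a log2 fold change of -0.18 (SE 0.06) with a limma adjusted p of 0.183 and an exact permutation p of 0.0286. It passed an FDR of 0.1 in 4 of 23 alternative settings, with limma adjusted p values from 0.0184 to 0.761. Its log2 fold changes there ran from -0.38 to -0.05. The Rps2 values read here are those of its brightest probe, at base 647. Its probes at bases 866 and 868 were at -0.07 and -0.09, with limma adjusted p values of 0.703 and 0.617. The probe at base 182 was at 0.15, and the groups overlapped in each of these other probes.

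Rps28, which lies near the channel where the message leaves, read 4.85, 4.75, 4.81 and 4.81 in the stressed rats and 4.90, 5.06, 4.94 and 4.90 in the control rats. All stressed rats were below all control rats. The log2 fold change was -0.15 with a limma adjusted p of 0.271, and -0.11 without control 2. Rps28 passed an FDR of 0.1 in 2 of 23 alternative settings, array weights and no scaling. With no scaling, which shifts every value by -0.20, it was at -0.34.

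Rps27a is made as a fusion with ubiquitin, and its brightest probe read 4.62, 4.53, 4.65 and 4.62 in the stressed rats and 4.79, 4.87, 4.67 and 4.65 in the control rats. The groups do not overlap, although control 4 and stressed 3 both round to 4.65. Stressed over control, the log2 fold change was -0.14 with a limma adjusted p of 0.324. With no scaling it was -0.34 with a limma adjusted p of 0.0899. The other Rps27a probe, at base 488, was at -0.06 with a limma adjusted p of 0.635, and its groups overlapped. Rps27, a zinc finger protein, had a log2 fold change of -0.15, Rps19, a gene mutated in Diamond-Blackfan anaemia, -0.09, Rps14 -0.07 and Rps3, near the message entry channel, -0.05, and limma called 0 of these 4, with 0 at an unadjusted p below 0.05. Rps27 was at -0.22 without control 2 (limma adjusted p 0.0391) and at 0.01 with the 5′ minus 3′ covariate. It passed an FDR of 0.1 in 2 of 23 alternative settings, and Rps19 in 1.

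Rps4x, the small subunit gene on the X chromosome, read 2.25, 2.28, 2.30 and 2.25 in the stressed rats and 1.79, 2.38, 1.81 and 1.90 in the control rats. Control 2 was the highest of the 8, and the other 3 control rats were below all stressed rats. Its only probe starts at base 98, and so is 1 of the 13 that start before base 100, described further below. This probe has 10 spots per array, with a spot SD of 0.04. The log2 fold change of Rps4x was 0.30 with a limma adjusted p of 0.259, 0.43 without control 2 (adjusted p 0.00199) and -0.02 once the 5′ to 3′ measure was a covariate.

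Rps12, a small subunit protein, read 5.36, 5.35, 5.47 and 5.20 in the stressed rats and 5.04, 5.57, 5.01 and 4.95 in the control rats. Control 2 was again the highest of the 8 and the other 3 control rats were below all stressed rats. This gives a log2 fold change of 0.20 with a limma adjusted p of 0.448, 0.35 without control 2 (adjusted p 0.0144) and -0.12 with the 5′ minus 3′ covariate. Rps26, chosen after its values were seen, has its probe at base 33 and read 1.62, 2.31, 1.63 and 1.73 in the control rats against 1.89, 1.77, 1.79 and 1.83 in the stressed rats. Control 2 was the highest here as well, and the log2 fold change of -0.00181 with all rats is 0.16 without control 2 (limma adjusted p 0.0795) and -0.37 with the covariate (limma adjusted p 0.0508), and both of these values turn on control 2.

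Several ribosomal proteins have a paralog that can take their place in some tissues. The 7 paralogs with a probe, Rpl3l, Rpl10l, Rpl22l1, Rpl26l1, Rpl36al, Rpl7l1 and Rps4y2, had a median log2 fold change of 0.00, and limma called 0 of them, with 0 at an unadjusted p below 0.05. Rpl3l, the form of striated muscle, read -6.58, -6.95, -6.04 and -6.84 in the stressed rats and -6.27, -6.72, -6.57 and -6.45 in the control rats. The groups overlap and the spread is wide. Rpl36al was at 0.13 beside -0.04 for Rpl36a, Rps4y2 at 0.13 beside 0.30 for Rps4x, Rpl22l1 at -0.08 beside -0.02 for Rpl22, Rpl10l at -0.13 beside -0.07 for Rpl10, and Rpl7l1 at -0.00483 beside 0.04 for Rpl7; with no scaling Rpl36al is at -0.07, Rps4y2 at -0.07 and Rpl7 at -0.16. Without control 2, Rpl10l was at -0.31 and Rpl22l1 at -0.00363. With the 5′ minus 3′ covariate Rpl10l was at 0.28. Rpl26l1 was at 0.05 beside -0.05 for Rpl26. This pair was not run singly under the alternatives, and the shift with median scaling takes Rpl26l1 below 0. Rps27l and Rpl39l had no probe by these names.

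For 34 pairs of probes on 1 transcript, at least 100 bases apart (median 207), the median 5′ minus 3′ difference was 0.03, 0.01, -0.06 and 0.06 log2 units in the stressed rats and 0.02, -0.13, 0.03 and 0.06 in the control rats. The groups overlap, and control 2 was the lowest of the 8. For 1176 other transcripts with probes 1000 or more bases apart the difference was 0.23, 0.18, 0.22 and 0.09 in the stressed rats and -0.39, 0.33, -0.39 and -0.24 in the control rats. Control 2 was the highest there, and for 327 other transcripts with probes 100 or more but fewer than 300 bases apart it was the lowest, at -0.09.

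The place of a probe on its transcript went with its fold change. The 13 ribosomal protein probes that start before base 100 had a median log2 fold change of 0.18, with 11 above 0, while the median was -0.05 for the 46 that start at base 100 or later but before base 300 and -0.03 for the 86 that start from base 300 on. The early median is 0.07 with median scaling, -0.02 with no scaling, 0.01 with the 5′ minus 3′ covariate and 0.22 without control 2. Median scaling shifts all probes by -0.11 and no scaling by -0.20, so that these 2 leave the difference between the places unchanged. Limma called 0 of the 13 early probes, with 4 at an unadjusted p below 0.05 and the same 4 with groups that did not overlap. The 13 probes come from 10 genes and these 4 from 2, since 3 are overlapping probes of Rpl37 and 1 is of Rpl28. Of the 299 other probes that start before base 100, 76 were at an unadjusted p below 0.05 and 43 had groups that did not overlap. Among other probes the medians at the same places were 0.21 (299 probes), 0.12 (1151) and 0.05 (19243), and 21 of the 299 early ones were called up.

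Per array, the early ribosomal protein probes had a centred median of 0.13, 0.10, 0.05 and 0.07 in the stressed rats and -0.20, 0.02, -0.19 and -0.10 in the control rats. All stressed rats were above all control rats, and control 2 was the closest to them. The part of the 5′ signal in these fold changes was not tested.

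**Figure D3:**
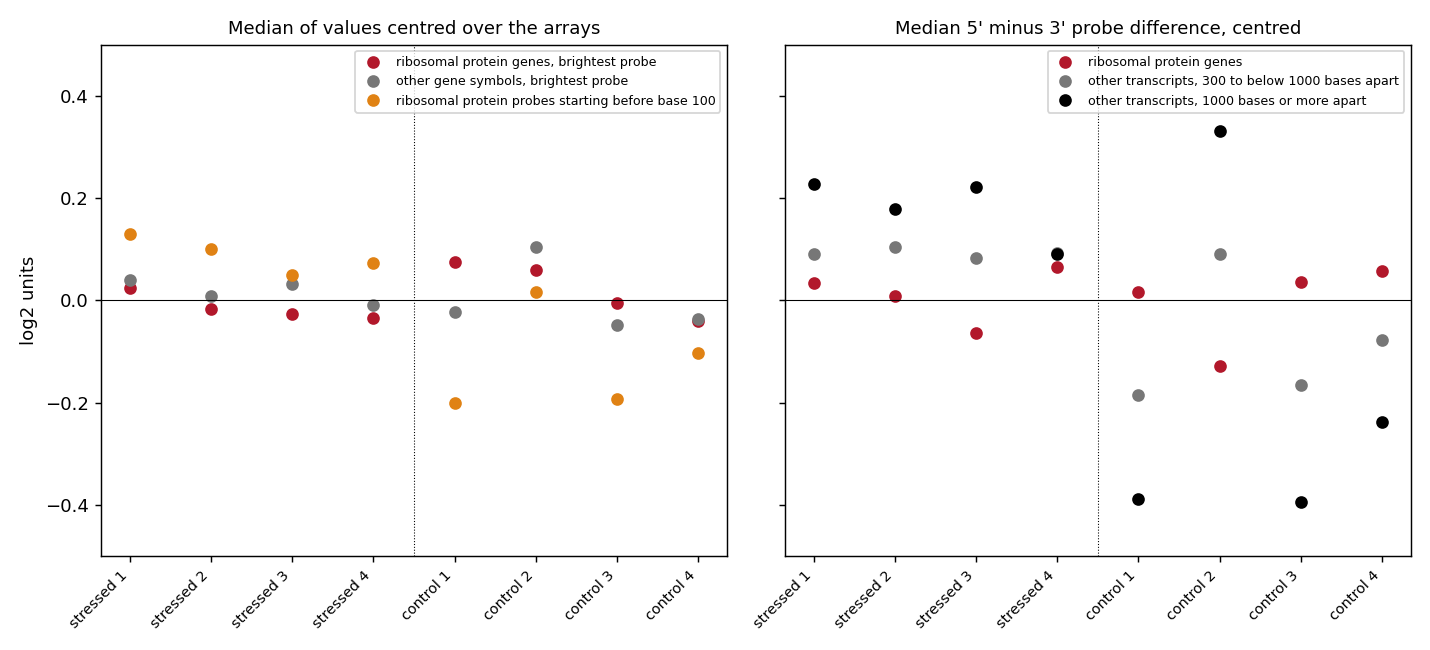
Median log2 value of gene sets on each array, centred over the 8 arrays (left), and median 5′ minus 3′ probe difference (right), with stressed rats left of the dotted line and control rats right of it. The ribosomal protein genes stay between -0.04 and 0.07 on the left and between -0.13 and 0.06 on the right, where their probes are a median of 207 bases apart. Other transcripts with probes 1000 or more bases apart run from -0.39 to 0.33. Those with probes 100 to below 300 bases apart, not drawn, run from -0.09 to 0.03.

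Rpl28, a large subunit protein chosen after its values were seen, has probes at 3 places on its transcript. Its probe at base 72 read 2.70, 2.73, 2.68 and 2.71 in the stressed rats and 2.46, 2.43, 2.51 and 2.51 in the control rats. The groups do not overlap and control 2 was the lowest. The log2 fold change was 0.23 with a limma adjusted p of 0.110, while its brightest probe, at base 281, was at -0.06 and the probe at base 958 at 0.11. The probe at base 958 was dim, with means of -6.02 in the stressed and -6.13 in the control rats. Its fold change is below the SD of 0.28 between its spots on an array.

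Rps14, on the platform of the small subunit, gave 0.26 at base 26, 0.05 at base 167 and, at base 447 of a different transcript, -0.07. At base 26 it read 3.82, 3.79, 3.88 and 3.76 in the stressed rats and 3.44, 3.90, 3.42 and 3.45 in the control rats. Control 2 was the highest of the 8 and the other 3 control rats were the lowest. With the 5′ minus 3′ covariate this probe is at -0.00802.

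Rpl37, a zinc-binding protein of the large subunit, has all 3 of its probes at the start of the transcript. The brightest, at base 49, read 3.39, 3.30, 3.24 and 3.34 in the stressed rats and 3.13, 3.22, 3.12 and 3.16 in the control rats. All stressed rats were above all control rats. Stressed over control, the log2 fold change was 0.16 with a limma adjusted p of 0.234, and the probes at bases 24 and 27 gave 0.27 and 0.28; the brightest turns to -0.04 with no scaling and to -0.02 with the GC trend removed. Rpl22l1 gave 0.39 at base 51 and -0.08 at base 452, Rpl39 0.18 at base 81 and -0.08 at base 236, and Rpl37a, chosen after its values were seen, 0.14 at base 24, -0.10 at base 290 and, on a different transcript, -0.11 at base 644. The Rpl39 probe at base 81 was at 0.40 without control 2 (limma adjusted p 0.00580) and at -0.31 with the covariate (limma adjusted p 0.0881). For Rpl37a at base 24 these values were 0.22 (limma adjusted p 0.0386) and -0.05. For Rpl22l1 at base 51 they were 0.56 (limma adjusted p 0.00278) and -0.00356. In the 2 other genes with both an early and a later probe, Rpl35 gave 0.08 at base 85, 0.02 at base 94 and 0.07 at base 391, and Rpl38 gave -0.14 at base 86, -0.16 at base 133, -0.11 at base 245 and -0.16 at base 251. These 2 genes were chosen after their values were seen and were not run under the alternatives, and median scaling, which shifts every value by -0.11, takes those of Rpl35 below 0.

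**Figure D4:**
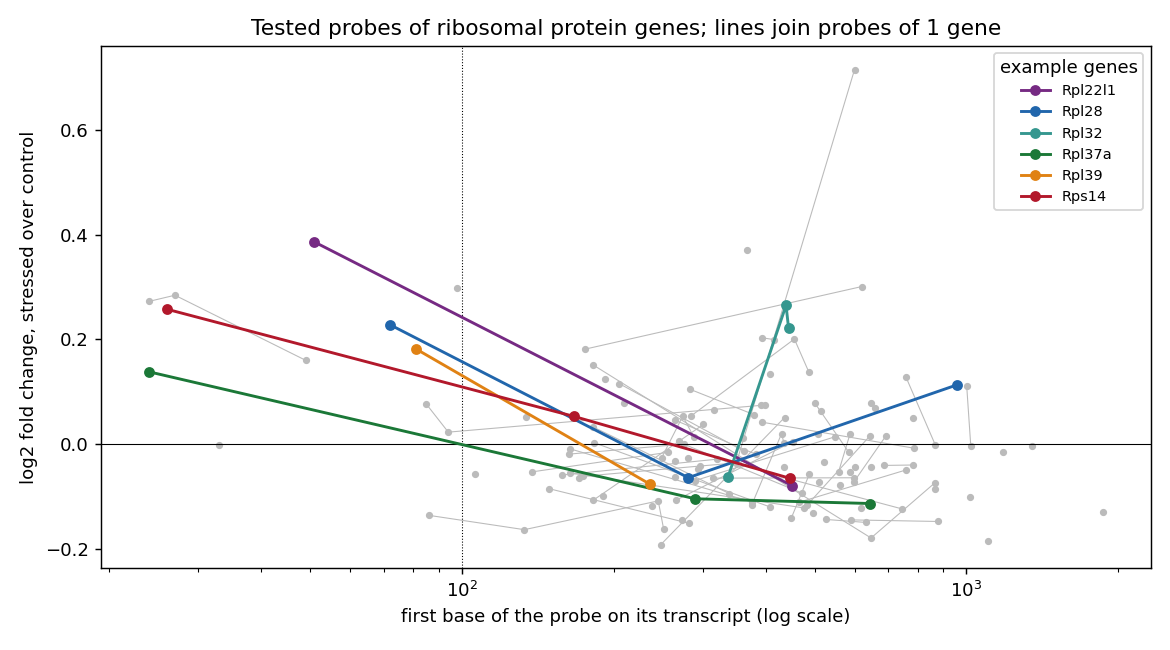
Log2 fold change, stressed over control (vertical axis), of the 145 tested ribosomal protein probes against the base, on the transcript listed for it, at which the probe starts (horizontal log axis), with lines joining the probes of 1 gene and 6 genes in colour. Left of the dotted line at base 100 the median of the 13 probes is 0.18, and from base 300 on it is -0.03. With no scaling the early median is -0.02, and all values, early and late, shift together by -0.20.

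Of the 84 genes, 45 had at least 2 tested probes, and in 36 of them the probes differed by less than 0.2 in log2 fold change (median range 0.09). The widest range, 0.78, was in Rpl36a, whose probe at base 600 read -4.71, -5.10, -5.04 and -5.85 in the stressed rats and -5.18, -5.88, -6.37 and -6.13 in the control rats. The groups overlap, and the spread within each group was far wider than for its 3 other probes. That probe had a log2 fold change of 0.72 with a limma adjusted p of 0.250, below the SD of 1.01 between its 2 spots on an array, while the 3 others lay between -0.07 and -0.04. In Rps2 the probe at base 182 was at 0.15 and the brightest, at base 647, at -0.18. The probe at base 182 was at 0.25 without control 2 (limma adjusted p 0.0161) and at -0.08 with the 5′ minus 3′ covariate.

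Ribosomal protein genes have many processed copies in the genome, and 81 of the 146 probes (55.5%) list more than 1 Ensembl transcript in the array files, against 19.2% of other probes. There were 15 pairs of overlapping probes within a gene, and in 13 of them, in 10 genes, the shared stretch differs in bases. Rpl32, a large subunit protein, has such a pair, shown over the 30 bases that both probes share and with the differing bases in capitals, because it departs from the gene's brightest probe.
Rpl32 probe A_64_P040616: atagatggcttgtgtgcctgttTtGtgttT
Rpl32 probe A_64_P084747: atagatggcttgtgtgcctgttAtAtgttC

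The probe A_64_P040616, at base 444, read 5.09, 5.03, 4.97 and 4.95 in the stressed rats and 4.77, 4.99, 4.70 and 4.70 in the control rats. Control 2 lay among the stressed rats and the other 3 control rats below them. Its log2 fold change was 0.22, that of A_64_P084747, at base 439, was 0.26, and that of the brightest Rpl32 probe, at base 337, was -0.06. The overlap of the pair is 55 bases with 4 differences, of which 3 fall in the stretch shown.

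Start sites of 67 of the 85 genes were found in the RefSeq promoter table of build GRCr8, which holds 33469 promoters from 250 bases before to 50 bases after the start. A run of at least 6 pyrimidines beginning with C, on the strand of the gene and within 10 bases of the annotated start, was in 43 of the 67 (64.2%) and in 17.8% of all promoters. The examples are shown because the run, in capitals, is the feature most of the family shares; each gives 10 bases before and 20 after the start.
Rpl28 start site: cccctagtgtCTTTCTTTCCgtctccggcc
Rpl37 start site: ggcgtaCTTTCTCTTCCggtctctttggcc
Rplp0 start site: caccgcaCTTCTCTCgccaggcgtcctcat
Rpl14 start site: ggCCCTCTCCCTTCTCgctgagcgccgcca
Rps2 start site: tCTTTTTCTTCgggaaaacacgtgagtctg
Rps6 start site, no run by this rule: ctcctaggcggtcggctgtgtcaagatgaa

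These stretches are chr1:78083513-78083542 (minus strand) for Rpl28, chr2:55942935-55942964 (plus) for Rpl37, chr12:46718371-46718400 (minus) for Rplp0, chr8:129163610-129163639 (plus) for Rpl14, chr10:14251838-14251867 (plus) for Rps2 and chr5:106420521-106420550 (minus) for Rps6, all on GRCr8. The median log2 fold change was -0.03 for the 43 genes with the run and -0.04 for the 23 tested genes without it. On both strands, GGGCGG, the core bound by Sp1, was in 58.2% of the family's promoters and 33.1% of all, and CCGGAAG, bound by ETS factors, in 31.3% and 8.75%. AAGATGGC, read by Yy1, was in 7.46% and 3.17%, and TATAAA in 10.4% and 14.2%. The letters AAG can be shared by CCGGAAG and AAGATGGC. A match describes the letters only.

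Other genes of the same pathway were taken from lists, whose medians all shift by -0.11 with median scaling and by -0.20 with no scaling, enough to turn each positive median of the pathway lists negative under no scaling. Their counts are to be read against the 3.62% of brightest probes of all symbols that limma called. Of 26 tested translation factors and other genes listed for starts of this kind, 1 rose and 0 fell, with a median of -0.02; of the 22 found in the promoter table, 8 have the run by the rule used here. The riser was Tpt1, the translationally controlled tumour protein, at 1.12 with a limma adjusted p of 0.0853 (1.39 without control 2).

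Of 53 ribosome assembly genes, 2 rose and 3 fell, with a median of -0.05. Rsl24d1, which is placed on the young large subunit and later leaves it, rose by 1.98 (limma adjusted p 0.0506), and Utp18, of the small subunit processome, by 0.45. Rrp9, which binds the U3 RNA, fell by 0.39, Nop58, a core protein of box C/D particles, fell by 0.30, and Polr1a, the large subunit of RNA polymerase I, fell by 0.27; Polr1a was chosen after its values were seen. Of 18 TOR and message regulators 1 rose, the kinase gene Rps6ka3 at 0.35, with a median of 0.04 whose sign turns under all 4 other scalings, and of 12 ribosome quality control genes 1 fell, Usp10, a deubiquitinase that acts on stalled small subunits, at -0.40, with a median of -0.04.

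Other large complexes show how the family compares. Of 69 mitochondrial ribosomal protein genes, 1 rose (Mrpl15, 0.43) and 1 fell (Mrpl2, -0.40), with a median of 0.04. Of 84 genes named as oxidative phosphorylation subunits, 1 rose (Ndufa7 of complex I, 2.35) and 3 fell (Uqcrc1 of complex III, -0.33, Atp5j of the ATP synthase, -0.24, and Cox4nb, -0.33, which matched by name and is no subunit), with a median of 0.00. Of 40 proteasome subunit genes limma called 0, and the median was -0.04. At an unadjusted p below 0.05 there were 3, against 19.8% of the brightest probes of all symbols. The difference between these lists and the cytosolic family was not tested. The called genes of all the lists had limma adjusted p values from 0.0506 (Rsl24d1) to 0.0977 (Atp5j), and in each of them the 4 stressed rats did not overlap the 4 control rats. Their signs held in all 23 alternative settings, but leaving out any rat other than control 2 ended every one of these calls; Polr1a was not run under the alternatives.

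The label of the tissue was checked with marker genes. All 8 markers each of astrocytes, microglia, oligodendrocytes and neurons were well above background on all 8 arrays, with Aldoc, C1qa, Mbp and Nefm the brightest. Of these lists, 1 oligodendrocyte marker rose (Mog, 0.90) and 1 neuronal marker fell (Eno2, -0.37), and among 6 endothelial markers Pecam1 rose (0.40). The other markers did not all follow these: 7 of 8 oligodendrocyte markers were above 0 (median 0.20), 5 of 8 neuronal ones (median 0.08) and 5 of 6 endothelial ones (median 0.16), and the medians shift with scaling as those of the pathway lists do. At an unadjusted p below 0.05, 3 of 8 oligodendrocyte markers were higher in stressed rats, against 19.8% of the brightest probes of all symbols in either direction. Of the neuronal markers 1 was higher and 2 were lower, and of the endothelial ones 1 was higher and 1 lower. Nefl, a neuronal marker, was at 0.57 and Vwf, an endothelial one, at -0.32, with limma adjusted p values of 0.120 and 0.236. Both were chosen after their values were seen. Limma called 0 of the astrocyte, microglia, motor neuron, Schwann cell, red blood cell and meningeal markers, with 1 astrocyte marker and 0 of the others at an unadjusted p below 0.05. Their medians, which shift with scaling in the same way, were 0.24 for astrocytes (6 of 8 above 0), 0.04 for microglia (6 of 8), -0.19 for motor neurons (1 of 5), -0.45 for Schwann cells (0 of 5), -0.11 for red blood cells (1 of 5) and -0.30 for meninges (1 of 6). Without control 2 the medians were 0.13 for microglia, -0.10 for motor neurons and -0.015 for red blood cells. For oligodendrocytes and endothelium they were then 0.32 and 0.31. The summed Schwann cell marker level was 3.29, 3.59, 4.62 and 3.45 in the stressed rats and 6.19, 4.20, 4.51 and 3.41 in the control rats. The groups overlap and control 1, which also had the highest family median, stood above the other 7. The summed oligodendrocyte marker level was 8.46, 8.38, 8.38 and 8.01 log2 units in the stressed rats and 8.10, 8.43, 7.90 and 7.87 in the control rats. Control 2 lay with the stressed rats here, and the part of cell composition in the ribosomal protein values was not tested.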

How the data were processed

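Total RNA from 8 rats was hybridised to 1 Agilent array each. Per the file headers, the deposited intensity (gProcessedSignal) had its background subtracted and was detrended in Feature Extraction 10.7.3.1, array by array, and surrogates stand in for small values. The authors' value table holds the same intensity, within 0.05, with column medians of 243, 250, 266 and 257 in the stressed and 248, 264, 270.5 and 276 in the control rats; no scaling between arrays was found.

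Signals were log2 transformed, scaled by the 75th percentile of each array, and averaged over the spots of a probe, without control spots (4259) and outlier spots. A probe was tested when at least 50% of its spots were well above background on at least 4 arrays, whatever the group, and 10 probes missing on an array were left out. limma 3.58.1 in R 4.3.3 compared the groups, with two-sided p values adjusted by Benjamini and Hochberg over 23678 probes. The fit was tested on simulated data. The number of arrays limits the precision.

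The alternatives were other scalings (median, none, quantile, cyclic loess), normexp background with an offset of 50, the authors' table, other filters, a variance trend with robust estimation, array weights, the replicate number as a block, a 5′ minus 3′ covariate, removal of the GC trend, the mean of a gene's probes and leaving out each array. Their use on list genes, list medians and single probes was added after seeing the data. Named genes are those called, the 5 largest rises and falls, genes with set roles, paralog pairs, the 3 genes whose probes differ most, and up to 4 called genes a list; Rpl23a, Rps26, Rpl28, Rpl35, Rpl37a, Rpl38, Polr1a, Nefl and Vwf were chosen after their values were seen. The members and lists were chosen with earlier results of these data known. Probe places come from the files (rn4), counted on the transcript listed for each probe, since no protein table was at hand to place probes on the coding sequence. Promoters were matched to RefSeq by accession (59 genes) or symbol (8). Ribosomal protein genes outside the name rule are not reported here.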

Additional observations from a re-analysis of the deposited data

Results flagged for a closer look

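In 70 groups of 4 rats, the gap between the farthest rat and its nearest neighbour was set against the whole range of the group. In 4 groups the share was above Dixon's critical value, and chance gives about 1 in 20, which does not hold for Rps26 and Rpl23a, since they were chosen after their values were seen. All 4 were control groups. For Rps12 the share was 0.864, with control 2 above the other control rats. For Rps26 it was 0.835, with control 2 above the others, and for Rpl23a it was also 0.835, with control 2 below them. For Rpl6 it was 0.845, with control 4 below the other control rats.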

How the results depend on the processing

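The number of ribosomal protein genes called was 0 with median scaling, normexp background, the GC trend removed and the replicate number as a block (in limma; 15, 5, 10 and 2 of the 84 at an unadjusted p below 0.05, against 23.1%, 13.3%, 23.1% and 18.1% of all tested probes), 5 (all down) with no scaling (38 of the 84 at an unadjusted p below 0.05, against 26.9% of all tested probes), 2 with a variance trend and robust estimation, 3 with the 5′ minus 3′ covariate and 26 with array weights, which gave control 2 a weight of 0.107; it was 1 under the other alternatives that keep all rats. Of all tested probes, limma called 7.58% with no scaling and 5.47% with a variance trend and robust estimation. It called 10.1% with the covariate and 50.6% with array weights. Leaving out 1 rat gave 0 to 19 called ribosomal protein genes, the highest without control 2. The number of probes called was 1794 with no scaling, 215 with normexp background, 3010 with no filter on dim probes, 11983 with array weights and 2390 with the covariate, and 0 to 10036 on leaving out 1 rat. The family's median was -0.15 with median scaling, -0.24 with no scaling and -0.15 with the GC trend removed, and between -0.050 and -0.014 on leaving out 1 rat. The median of the probes starting before base 100 was 0.067 with median scaling, -0.017 with no scaling and 0.012 with the covariate. Median scaling and no scaling shift the later probes by the same amounts as the early ones.

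The replicate number as a block gave 0 of 23678 probes (18.1% at an unadjusted p below 0.05) and 0 ribosomal protein genes, and the family's median stayed at -0.04. The deviations of rats with the same number correlated at 0.10, 0.12, -0.09 and 0.31 over all tested probes (genes are not independent replicates). Without the same values for rats of different numbers, these do not settle whether the numbers pair the rats.

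The sign turns given are those of the genes and probes named in the text and run singly under the alternatives. Over all 84 genes, the number above 0 went from 30 to 9 with median scaling and 4 with no scaling. With median scaling, the log2 fold changes that turned sign were Rplp0 -0.00382, Rplp1 -0.040, Rplp2 -0.10, Rpl11 -0.066, Rpl13a -0.096, Rpl7 -0.074, Rpl28 at base 958 -0.00213 and Rps14 at base 167 -0.063. With no scaling, the log2 fold changes that turned sign were Rpl37 -0.039, Rplp0 -0.088, Rplp1 -0.12, Rplp2 -0.19, Rpl11 -0.15, Rpl13a -0.18, Rpl36al -0.066, Rpl7 -0.16, Rps4y2 -0.072, Rpl28 at base 958 -0.086, Rpl37a at base 24 -0.062, Rpl39 at base 81 -0.017, Rps14 at base 167 -0.15 and Rps2 at base 182 -0.048. After quantile normalization, the log2 fold changes that turned sign were Rps6 0.013, Rplp2 -0.087 and Rpl28 at base 958 -0.10. After cyclic loess, the log2 fold changes that turned sign were Rps6 0.020, Rpl22 0.010, Rpl23a 0.012, Rps26 0.011 and Rpl28 at base 958 -0.10. With normexp background, the log2 fold changes that turned sign were Rps6 0.00493, Rplp2 -0.00202 and Rpl3l 0.064. With array weights, the log2 fold changes that turned sign were Rps14 0.00303, Rpl22l1 0.000245, Rpl7l1 0.052, Rps26 0.15 and Rps2 at base 866 0.035. With the 5′ minus 3′ covariate, the log2 fold changes that turned sign were Rps4x -0.017, Rps12 -0.12, Rps27 0.012, Rps6 0.060, Rplp0 -0.17, Rplp1 -0.082, Rpl13a -0.13, Rpl32 0.093, Rpl3l 0.022, Rpl10l 0.28, Rpl23a 0.53, Rpl22l1 at base 51 -0.00356, Rpl36a at base 171 0.12, Rpl36a at base 174 0.11, Rpl37a at base 24 -0.048, Rpl39 at base 81 -0.31, Rps14 at base 26 -0.00802 and Rps2 at base 182 -0.082. With the GC trend removed, the log2 fold changes that turned sign were Rpl37 -0.021, Rplp0 -0.032, Rplp1 -0.019, Rplp2 -0.088, Rpl11 -0.13, Rpl13a -0.094, Rpl7 -0.13, Rps4y2 -0.053, Rpl37a at base 24 -0.043, Rps14 at base 167 -0.061 and Rps2 at base 182 -0.030. With the mean of a gene's probes, the log2 fold changes that turned sign were Rps6 0.032, Rps14 0.081, Rpl32 0.14, Rpl22 0.013, Rpl22l1 0.15, Rpl39 0.052, Rpl36a 0.14 and Rpl23a 0.051.

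On leaving out 1 rat, the signs that turned had these lowest and highest values: Rps6 -0.046 to 0.010, Rplp2 -0.0097 to 0.032, Rpl13a -0.014 to 0.086, Rpl22 -0.071 to 0.011, Rpl3l -0.29 to 0.013, Rpl39 -0.14 to 0.018, Rpl7 -0.027 to 0.096, Rpl7l1 -0.033 to 0.047, Rpl23a -0.26 to 0.091, Rps26 -0.070 to 0.16 and Rps2 at base 866 -0.13 to 0.013. Of the other values for named genes, probes and lists, 1532 kept direction and side of the threshold or moved by less than the spread between control rats, 182 lost their call, 64 gained one and 46, all of them list medians, moved further. The cause of these changes was not tested. Signal over background kept Rps19bp1 out of the tests, while the 84 tested genes were well above it on all 8 arrays. With normexp background, which also adds an offset, Rpl5 had a limma adjusted p of 0.105. Its log2 fold change was then 0.345, against 0.371 with the main settings. Over all tested probes the calls fell from 885 to 215 under the same change. The part of the background in the Rpl5 value was not tested.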
